A study of Mus musculus with 4 samples.

Results

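Neutrophils infiltrating MC38 liver tumours were taken from 4 droplet single-cell RNA libraries by the transcripts they carry. A barcode was kept where it had 300 or more detected genes and under 15% mitochondrial UMIs (UMI, a unique molecular identifier that marks 1 captured transcript). It was called a neutrophil where S100a8, S100a9, Retnlg and G0s2 together made up 0.3% or more of its UMIs and Csf3r, Cxcr2, Hdc and Il1r2 together had at least 2 UMIs, with C1qa, C1qb and C1qc under 1% of UMIs and at most 1 UMI of Cd3d, Cd3e and Cd3g. The rule found 2120 neutrophils among 42617 filtered barcodes, or 4.97%, of 50062 deposited. Within them, cells with 10 or more UMIs of Camp and Ngp together were set apart as immature, 56 in all. The members were therefore chosen by measured values, and the levels of the genes in the rule are given as a description only.

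The tumours were liver metastases of MC38, a mouse colon carcinoma line, in C57BL/6J mice, and the cells were immune cells selected on magnetic beads for CD45. Each library was 1 combination of diet and tumour line: HFD_shYap (high-fat diet, shYap-MC38), HFD_WT (high-fat diet, WT-MC38), LFD_shYap (low-fat diet, shYap-MC38) and LFD_WT (low-fat diet, WT-MC38). The mice themselves were wild type in every library, and shYap names a knockdown derivative of the tumour line. How many mice gave each library, their age and how long they were fed are not given in the sources used here. The title of LFD_shYap says low-fat and its treatment field says high-fat; the title was followed and the other reading is given beside the diet and line results it changes. With 1 library per combination, p-values reflect no more than how these 4 samples vary, and intervals on shares and levels cover counting error only.

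Neutrophils are short-lived phagocytes that leave the bone marrow loaded with granules of antimicrobial proteins. They are retained there by CXCR4 and called out by ligands of CXCR2, and in tumours they carry programmes of chemokine release, low-oxygen metabolism and T cell inhibition. Granule proteins are made in a set order during maturation, primary granules first and secondary granules such as those holding Camp, Ngp and Ltf later, so transcripts of these genes mark cells that have not finished maturing.

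The files held 426 neutrophils for HFD_shYap, 864 for HFD_WT, 403 for LFD_shYap and 427 for LFD_WT, with a median of 1859 to 2247 UMIs per cell and 1321730 to 2862299 UMIs per library in their sum. Of the deposited barcodes 267 occurred in 2 or more libraries, but no neutrophil barcode occurred among the neutrophils of another library. Among the other filtered barcodes of another library, 18 neutrophil barcodes did occur. At the edges of the rule, 46 neutrophils had 0.3 to 0.4% of UMIs in the granule genes and 62 barcodes just outside had 0.2 to 0.3%, while 114 neutrophils had 2 UMIs of the receptor genes and 136 barcodes just outside had 1. For the exclusions, 30 neutrophils had 0.9 to 1% of UMIs in the C1q genes and 25 barcodes just outside had 1 to 1.1%, and 109 neutrophils had 1 Cd3 UMI while 14 barcodes just outside had 2. The rule genes were far above their level in other filtered barcodes. S100a8, a subunit of calprotectin, was at 20624 CPM (UMIs of the gene per 1000000 UMIs of all genes, over the summed neutrophils of a library) in HFD_shYap, 21758 in HFD_WT, 49179 in LFD_shYap and 18104 in LFD_WT, against 34.9 to 151 CPM in the remaining barcodes. Csf3r, the receptor for the growth factor G-CSF, was at 448 to 689 CPM in neutrophils, against 16.9 to 21.8 CPM in the remaining barcodes.

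These cells fell into 7 Leiden clusters, and not all of them were led by neutrophil genes. Cluster 3 (442 cells) was led by Retnlg, Nlrp12 and Cd300lb, and cluster 6 (45 cells) by Camp, Ltf and Ngp. Cluster 1 (620 cells) was led by Cxcl3, Csta2 and Fam71f2, cluster 2 (577 cells) by Icam1, Egr3 and Dusp2, and cluster 5 (129 cells) by the interferon-induced Ifit1, Gbp2 and Ifit3b. None of the fixed neutrophil markers was among the top 10 genes of clusters 1, 2 and 5, which are called by number. Cluster 4 (287 cells) was led by Ccr2, Gzma and Ms4a4c, with 4 monocyte markers among its top 10 genes, a median of 7576 UMIs and 85 cells marked by a doublet score. Cluster 7 (20 cells) was led by Col3a1, Dcn and Tm4sf1, fibroblast and tumour markers, with a median of 18184.5 UMIs and 10 marked cells. Together clusters 4 and 7 held 307 cells but 42.9% of the UMIs, between 29.9% and 52.5% per library. The 1813 cells outside them are called core neutrophils below, a class added once the clusters had been seen, and the tests and list counts are given for all gated cells and for core cells.

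In core neutrophils the 11 neutrophil markers summed to 88102 CPM in HFD_shYap, 104620 in HFD_WT, 213133 in LFD_shYap and 92207 in LFD_WT. Most of this sum came from genes of the rule, so it describes the cells and does not check their identity. Of the markers outside the rule, Clec4d was at 2605, 2417, 1396 and 2069 CPM in the same order. Mmp9 was at 815, 322, 690 and 1092 CPM, and Ly6g at 30.2, 63.4, 184 and 22.1 CPM. T cell, B cell, eosinophil, basophil, hepatocyte and endothelial lists each summed to at most 52.4 CPM in any library. The rule itself limits the Cd3 genes of the T cell list. Other lists are given by their highest marker in any library: Nkg7 for NK cells at 43.6 CPM (LFD_shYap) and Col3a1 for fibroblasts at 24.4 CPM (HFD_WT). Tm4sf1 of the tumour-like list reached 14.9 CPM (LFD_shYap) and Ccr7 of the dendritic list 4.27 CPM (HFD_WT). Macrophage markers were higher, at 4982 CPM in HFD_shYap, 9452 in HFD_WT, 8918 in LFD_shYap and 18366 in LFD_WT, and those outside the rule stood at 12.1%, 21.0%, 12.8% and 32.7% of their level in C1q-high barcodes of the same libraries, macrophage-rich barcodes with 1% or more of UMIs in the C1q genes. Monocyte markers summed to 536, 592, 1167 and 949 CPM in HFD_shYap, HFD_WT, LFD_shYap and LFD_WT core cells. Their part and that of macrophage RNA in the results on macrophage-expressed genes was not tested.

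The libraries also differed in sex-linked RNA. Neutrophils of HFD_shYap held 173 UMIs of Xist, the RNA of the inactive X chromosome, against 0 in each of the other libraries, beside 264 UMIs of Y-linked genes; 54 of its 426 cells had Xist only, 112 had Y-linked UMIs only and 17 had both. HFD_shYap thus held Xist-positive and Y-positive cells, and the diet genes and the interferon genes are set out below for these cells apart.

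The neutrophil share of filtered barcodes was 5.40% in HFD_shYap (4.91 to 5.93, Clopper-Pearson 95% interval), 7.07% in HFD_WT (6.62 to 7.54), 4.05% in LFD_shYap (3.67 to 4.46) and 3.40% in LFD_WT (3.09 to 3.73). Core neutrophils made up 5.05%, 6.09%, 3.27% and 2.75% in the same order. Both high-fat libraries thus had the larger shares. The difference between HFD_WT and LFD_WT was 3.67 points (3.12 to 4.23, Newcombe interval), and that between HFD_shYap and LFD_shYap was 1.35 points (0.724 to 1.99). A stricter rule with 2% of UMIs in the granule genes left 0.510 points between HFD_shYap and LFD_shYap. With 1 library per group these differences have no replicate check, and CD45 selection sets what a share is taken of.

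**Figure D1:**
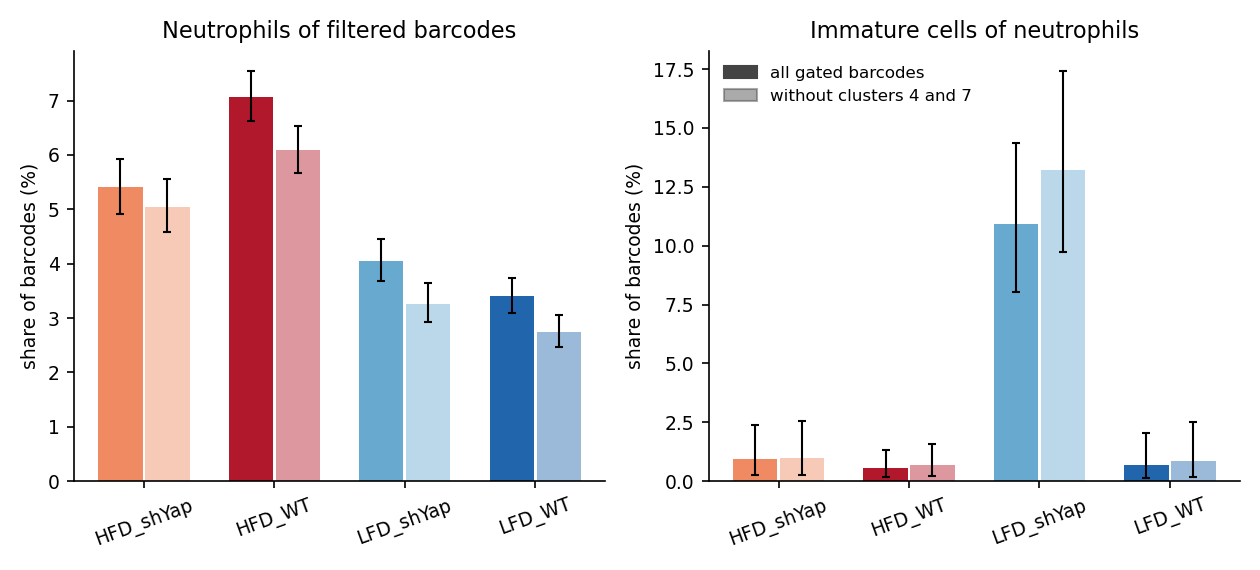
Share of filtered barcodes called neutrophils (left) and share of neutrophils with 10 or more UMIs of Camp and Ngp (right) in each library, in percent, with Clopper-Pearson 95% intervals; dark bars are all gated cells and pale bars leave out clusters 4 and 7. HFD_WT has the largest neutrophil share at 7.07%, and LFD_shYap stands alone in immature cells at 10.9%.

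The comparison of diets asked which neutrophil transcripts differed between high-fat and low-fat tumours over both tumour lines. UMI counts were summed per library and tested with edgeR's quasi-likelihood test, with diet and line as additive terms and Benjamini-Hochberg adjustment over all genes at 0.05. Over all gated cells 76 genes were higher and 4 lower in the high-fat libraries of 8105 tested (0.987% called, 0.938% higher and 0.0494% lower). Over core neutrophils 44 were higher and 4 lower of 6053 (0.793% called, 0.727% higher and 0.0661% lower). At an unadjusted p under 0.05 the calls were 12.7% and 12.9% of genes. In both fits 39 genes were higher and 1 was lower. Of these 40, 36 had their highest mean level in core neutrophils rather than in monocytes or C1q-high barcodes. No share over all tested genes stands beside this count or the like count below, so neither is a result about the diet genes. Of the 39, 6 were members of the hypoxia and glycolysis list, and Cxcl3, Ccl3, both ligands of the checkpoint receptor PD-1, H2-Aa and H2-Eb1 were among the rest, most of which were in no list.

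Cxcl3, a chemokine ligand of CXCR2 that draws in further neutrophils, was at 2475 CPM in HFD_shYap and 1984 CPM in HFD_WT, against 162 CPM in LFD_shYap and 427 CPM in LFD_WT, in core neutrophils. C1q-high barcodes of the same libraries held 4.88 to 32.1 CPM. The high-fat libraries lay above both low-fat libraries, with a log2 fold change of 3.05 ± 0.49 (SE; adjusted p = 0.00278, edgeR). Ccl3, an inflammatory chemokine, was at 1263 and 1158 CPM in HFD_shYap and HFD_WT, against 81.9 and 511 CPM in LFD_shYap and LFD_WT. It too rose, by 2.51 ± 0.51 (adjusted p = 0.023), although the low-fat libraries differed widely from each other, and C1q-high barcodes had 130 and 103 CPM in HFD_shYap and HFD_WT, against 295 and 307 CPM in LFD_shYap and LFD_WT. Cxcl2, the most abundant chemokine of these cells, did not pass the test: its level was 12637 CPM in HFD_shYap, 11236 in HFD_WT, 3245 in LFD_shYap and 8544 in LFD_WT. Ccl4 had 2553, 2279, 560 and 1160 CPM in the same order and also missed the threshold, with an adjusted p of 0.129 by edgeR. Of 12 chemokine ligands 4 were called over gated cells (Cxcl3, Ccl3, Ccl5 and Cxcl9) and 2 over core cells, with a list median log2 fold change of 1.15 and 0.83, against -0.01 and -0.03 over all genes tested.

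**Figure D2:**
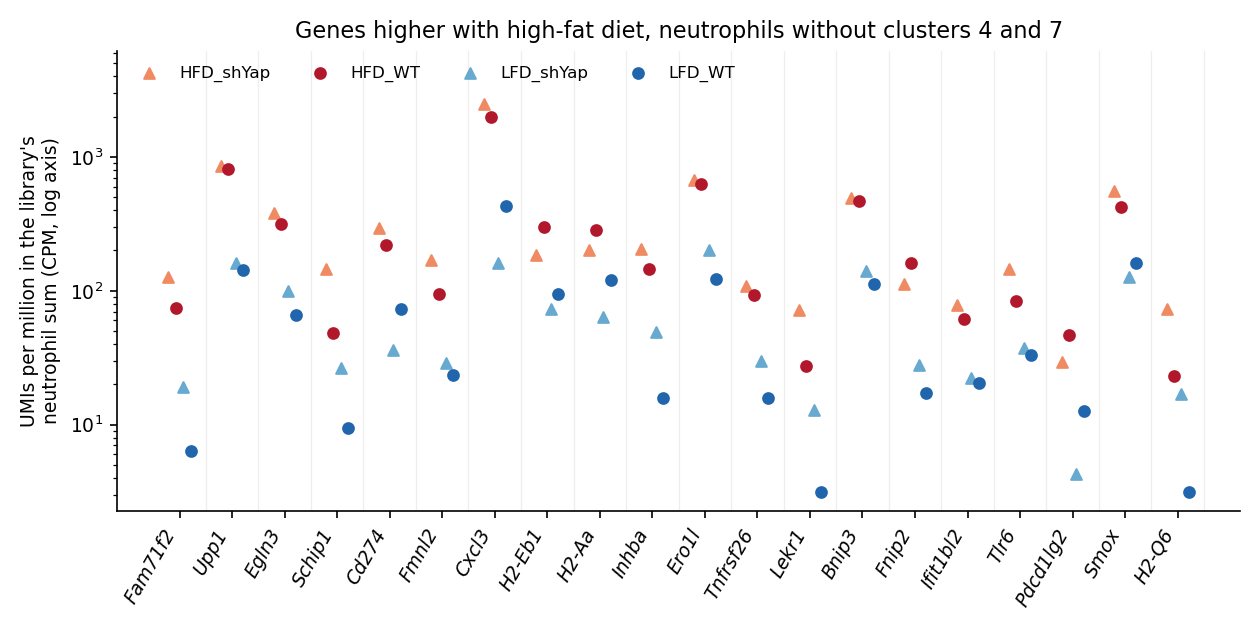
Levels in core neutrophils of the 20 named genes with the smallest p among those higher with high-fat diet in both fits, in CPM on a log axis, 1 point per library; triangles are shYap libraries and circles WT libraries, red tones high-fat and blue tones low-fat. For each gene both high-fat points lie above both low-fat points, as for Cxcl3 at 2475 and 1984 against 162 and 427 CPM.

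The hypoxia and glycolysis list had the most calls of any list in both fits. When oxygen is low, the transcription factor HIF-1 escapes hydroxylation by the EGLN enzymes and binds sites with the core letters ACGTG, which raises glucose uptake, glycolysis and mitophagy. Of 21 members 19 were counted, 7 were called higher over gated cells and 6 over core cells, 0 were called lower, and all 19 had a positive log2 fold change in both fits, with medians of 1.07 and 1.01, against -0.01 and -0.03 over all genes tested and calls for 0.938% and 0.727% of them. The other 12 and 13 did not pass. Egln3, itself one of the HIF hydroxylases, was at 379 and 316 CPM in HFD_shYap and HFD_WT, against 99 and 66.2 CPM in LFD_shYap and LFD_WT, and was at most 11.7 CPM in C1q-high barcodes of any library. Its log2 fold change was 2.06 ± 0.35 (adjusted p = 0.00396, edgeR). Bnip3, a mitophagy receptor, had 498 and 467 CPM in HFD_shYap and HFD_WT, against 139 and 112 CPM in LFD_shYap and LFD_WT (log2 fold change 1.92 ± 0.35, adjusted p = 0.00898). Slc2a1, the glucose transporter GLUT1, had 412 and 348 CPM in HFD_shYap and HFD_WT, against 135 and 110 CPM in LFD_shYap and LFD_WT. For these 3 genes each high-fat library was over 2-fold above each low-fat library.

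Hilpda, which inhibits the lipase that empties lipid droplets, was the most abundant called member, with 1451 and 2278 CPM in HFD_shYap and HFD_WT, against 501 and 373 CPM in LFD_shYap and LFD_WT (2.05 ± 0.47, adjusted p = 0.0388). Ero1l, an oxidase of the endoplasmic reticulum that forms disulfide bonds, had 678 and 632 CPM in HFD_shYap and HFD_WT, against 203 and 123 CPM in LFD_shYap and LFD_WT. Hk2, a hexokinase that traps glucose in the cell, had 362 and 261 CPM in HFD_shYap and HFD_WT, against 126 and 99.3 CPM in LFD_shYap and LFD_WT. The abundant glycolytic enzymes moved less: Gapdh, with 1931 and 1865 CPM in HFD_shYap and HFD_WT, against 1439 and 1016 CPM in LFD_shYap and LFD_WT, had a log2 fold change of 0.63 and an adjusted p of 0.595. Ldha and Pgk1, the lactate dehydrogenase and the phosphoglycerate kinase, had 0.98 and 1.03 and did not pass either. Vegfa, the endothelial growth factor, had 195 and 163 CPM in HFD_shYap and HFD_WT, against 58.5 and 128 CPM in LFD_shYap and LFD_WT, with an adjusted p of 0.224.

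**Figure D3:**
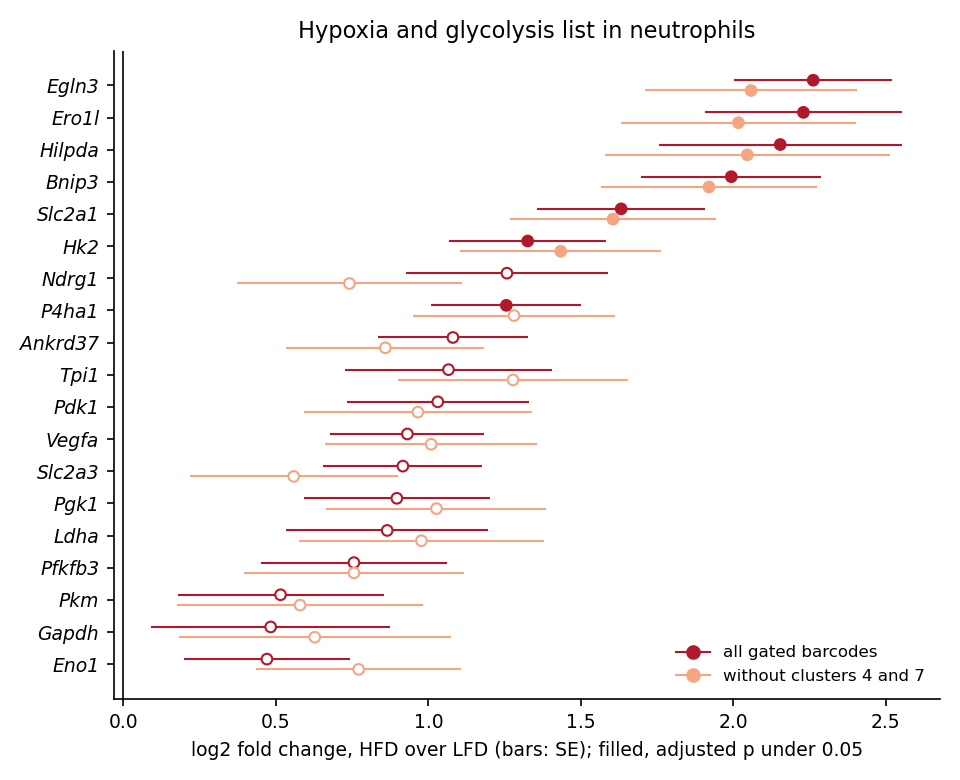
Log2 fold change of high-fat over low-fat libraries for the 19 counted members of the hypoxia and glycolysis list, with approximate SE; dark points are all gated cells, pale points leave out clusters 4 and 7, and filled points have an adjusted p under 0.05. Every point lies right of 0, from 0.47 for Eno1 to 2.26 for Egln3 over gated cells.

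The letters ACGTG were looked for on both strands in the 250 bases before the start of each gene, in RefSeq promoter windows of GRCm38.p6. They occurred for 13 of 18 matched members of the hypoxia list (72.2%), for 12 of 36 matched genes higher with high-fat diet (33.3%) and for 4998 of 27025 genes in all (18.5%). The first 2 sets overlap: Egln3, Bnip3, Slc2a1, Hilpda and Hk2 are in both and each has a match. The 33.3% is therefore not a share of diet genes apart from the hypoxia list. Stretches around the match are shown for 3 hypoxia genes and for Cxcl3, the listed chemokine with the largest fold change, 5′ to 3′ on the strand of the gene, with the match in capitals. In Bnip3 and Cxcl3 the capitals span CACGTG, which holds the motif on both strands. A match is a description of these letters and not a measured binding site.
Egln3, chr12:54204069-54204124, minus strand: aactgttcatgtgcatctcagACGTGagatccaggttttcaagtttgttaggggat
Bnip3, chr7:138909579-138909644, minus strand: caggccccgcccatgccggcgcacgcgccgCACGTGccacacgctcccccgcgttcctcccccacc
Slc2a1, chr4:119108679-119108743, plus strand: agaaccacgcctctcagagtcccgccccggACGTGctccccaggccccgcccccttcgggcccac
Cxcl3, chr5:90785916-90785981, plus strand: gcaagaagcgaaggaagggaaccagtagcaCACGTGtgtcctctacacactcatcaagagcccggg
The Cxcl3 match begins 155 bases before the gene's start, the Bnip3 match 108, the Slc2a1 match 36 and the Egln3 match 229.

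Both ligands of PD-1, the receptor that restrains T cells, rose with high-fat diet. Cd274, which encodes PD-L1, was at 295 and 221 CPM in HFD_shYap and HFD_WT, against 36.2 and 72.5 CPM in LFD_shYap and LFD_WT (log2 fold change 2.28 ± 0.36, adjusted p = 0.00278, edgeR). Pdcd1lg2, which encodes PD-L2, was lower throughout, at 29.1 and 46.3 CPM in HFD_shYap and HFD_WT, against 4.26 and 12.6 CPM in LFD_shYap and LFD_WT (2.23 ± 0.47, adjusted p = 0.0248). The low-fat values of Pdcd1lg2 rest on 4 and 8 UMIs. The genes are neighbours on chromosome 19, with Cd274 at 29367455 to 29388095 and Pdcd1lg2 at 29410919 to 29471161 (GRCm38, GENCODE). They were the called members of the 21 counted genes of the tumour neutrophil and suppressive list, whose median was 0.47 over gated and 0.54 over core cells. Other members were abundant without passing the test, such as Wfdc17, at 2374 and 4718 CPM in HFD_shYap and HFD_WT, against 3545 and 2469 CPM in LFD_shYap and LFD_WT.

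Outside the lists, genes with the smallest p over core cells included Fam71f2, Upp1, Inhba, Fmnl2, Fnip2 and Schip1. Upp1, uridine phosphorylase, had 855 and 815 CPM in HFD_shYap and HFD_WT, against 162 and 142 CPM in LFD_shYap and LFD_WT, a log2 fold change of 2.44 ± 0.39 (adjusted p = 0.00278). Fam71f2 had 127 and 73.8 CPM in HFD_shYap and HFD_WT, against 19.2 and 6.30 CPM in LFD_shYap and LFD_WT, the last from 4 UMIs (2.94 ± 0.41, adjusted p = 0.00262). It lies next to Hilpda on chromosome 6, Hilpda at 29272488 to 29275446 and Fam71f2 at 29279593 to 29290680, both on the plus strand with 4146 bases between them. Schip1 had 146 and 48.2 CPM in HFD_shYap and HFD_WT, against 26.6 and 9.45 CPM in LFD_shYap and LFD_WT. Fmnl2, a formin that builds actin filaments, had 171 and 94.5 CPM in HFD_shYap and HFD_WT, against 28.7 and 23.6 CPM in LFD_shYap and LFD_WT. Inhba, which encodes a subunit of activin A, had 205 and 146 CPM in HFD_shYap and HFD_WT, against 49.0 and 15.8 CPM in LFD_shYap and LFD_WT (2.48 ± 0.40, adjusted p = 0.00278). Fnip2, a folliculin-interacting protein, had 112 and 161 CPM in HFD_shYap and HFD_WT, against 27.7 and 17.3 CPM in LFD_shYap and LFD_WT. For each of these 6 genes the low-fat libraries were both below the high-fat ones.

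MHC class II genes also rose, though neutrophils held few of these transcripts. H2-Aa was at 201 and 287 CPM in HFD_shYap and HFD_WT, against 63.8 and 120 CPM in LFD_shYap and LFD_WT in core neutrophils (1.43 ± 0.33, adjusted p = 0.0388), and H2-Eb1 at 184 and 299 CPM in HFD_shYap and HFD_WT, against 73.4 and 94.5 CPM in LFD_shYap and LFD_WT (1.47 ± 0.34, adjusted p = 0.0402). In C1q-high barcodes of the same libraries H2-Aa was at 1752 and 2204 CPM in HFD_shYap and HFD_WT, against 713 and 501 CPM in LFD_shYap and LFD_WT, so macrophage levels were also higher with high-fat diet, and the part of macrophage RNA in the neutrophil values was not tested. H2-Ab1, Cd74 and H2-DMb1 were called over gated cells but not over core cells, where the antigen presentation median was 0.65, against 1.39 over gated cells. Fcna, a ficolin of macrophages, was the gene lower in both fits, at 7.56 and 12.2 CPM in HFD_shYap and HFD_WT, against 30.9 and 52.0 CPM in LFD_shYap and LFD_WT (-2.04 ± 0.43, adjusted p = 0.0248). Fcna had its highest mean level in C1q-high barcodes, and the MHC class II genes named here had theirs in monocytes. Of the 40 genes called over gated cells alone, 22 had their highest mean level in core neutrophils, 16 in monocytes and 2 in C1q-high barcodes. Gzma and Gzmb (lower) and Mmp12 and Ccr7 (higher), the 4 with the smallest p, were highest in the monocyte class. The classes compared were core neutrophils, monocytes and C1q-high barcodes, without natural killer (NK), T or dendritic cells. The monocyte class of LFD_WT also held the NK cell markers Nkg7 and Prf1, at 138 and 68.0 CPM.

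Most other lists had few or no calls between diets. In the type I interferon list 0 of 25 counted members were called over gated cells and 1, Ifi204, over core cells, with medians of 0.82 and 0.88. In the interferon gamma list the calls were Cd274 and Cxcl9 over gated cells and Cd274 over core cells, of 20 counted members, with medians of 0.62 and 0.57. Among interleukin 1 and NF-kB cytokines only Il1rn, the interleukin 1 receptor antagonist, was called, over gated cells. In this list 13 of 14 counted members had a positive fold change over gated cells and 13 of 13 over core cells, with medians of 0.83 and 0.73. The core levels of Il1rn were 826 and 819 CPM in HFD_shYap and HFD_WT, against 189 and 515 CPM in LFD_shYap and LFD_WT. Il1b had 6995 and 4707 CPM in HFD_shYap and HFD_WT, against 2532 and 6883 CPM in LFD_shYap and LFD_WT, so the groups overlapped. No member was called in either fit for the lists of primary granules, secondary and tertiary granules, cell cycle, granulocyte transcription factors, growth factor receptors and survival, trafficking and adhesion, NADPH oxidase and oxidative stress, cholesterol and fatty acid synthesis, eicosanoid enzymes, extracellular trap genes, and dissociation and heat shock. Of the last, 16 of 17 members had a positive fold change over gated cells, with a median of 0.63. For the lipid uptake, storage and oxidation list the 1 call was Hilpda, and Plin2, which coats lipid droplets, had 1236 and 1423 CPM in HFD_shYap and HFD_WT, against 745 and 396 CPM in LFD_shYap and LFD_WT with an adjusted p of 0.241. Marco, a scavenger receptor, was the 1 gene called in the pattern recognition list, in core cells, at 9.72 and 9.15 CPM in HFD_shYap and HFD_WT, against 145 and 14.2 CPM in LFD_shYap and LFD_WT, so LFD_shYap stood apart from the other 3. In cluster 6, where 44 of 45 cells were immature, Marco was at 322 CPM in LFD_shYap, against 8.08 CPM over all other clusters.

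After thinning every cell to 1000 UMIs, 0 of 37 of the genes higher in both fits that were still tested were called over gated cells and 10 of 36 over core cells, with no direction reversed. The genes were chosen by their direction in these same cells, so the directions after thinning do not test it. Shares of cells with a UMI were compared after the same thinning, which left 412, 826, 391 and 419 cells in HFD_shYap, HFD_WT, LFD_shYap and LFD_WT. Cxcl3 was then detected in 35.7% of cells of HFD_shYap and 32.9% of HFD_WT, against 10.5% of LFD_shYap and 10.5% of LFD_WT. T cells of the same libraries, thinned alike from medians of 5668 to 7968 UMIs, showed it in 0.309 to 2.91%, and the unthinned neutrophil shares were 39.9%, 41.2%, 15.9% and 13.1%. Egln3 was detected in 23.1% and 20.7% of thinned cells in HFD_shYap and HFD_WT, against 8.95% and 5.49% in LFD_shYap and LFD_WT. Cd274 was in 17.2% and 16% in HFD_shYap and HFD_WT, against 3.07% and 5.49% in LFD_shYap and LFD_WT, and the T cell share was 2.73 to 4.85%, so the low-fat shares lay near that background. Hilpda was in 39.6% and 55.8% in HFD_shYap and HFD_WT, against 30.4% and 17.9% in LFD_shYap and LFD_WT, with 17.5 to 26.2% in T cells.

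Several measured differences between the libraries moved with these genes. Immature cells held 43.3% of the core UMIs of LFD_shYap and 1.56 to 2.79% of those of the others. Without them all 39 genes still had both high-fat libraries above both low-fat libraries, and Cxcl3 stood at 2546 and 2026 CPM in HFD_shYap and HFD_WT, against 283 and 434 CPM in LFD_shYap and LFD_WT. All 39 were called again when immature cells were left out of the test. Among Xist-positive and Y-positive core cells of HFD_shYap (46 and 101 cells), all 39 genes were above both low-fat libraries in either kind, but only 1 was higher in Xist-positive than in Y-positive cells and 13 were 2-fold or more lower, with Cxcl3 at 1517 against 3585 CPM and Ccl3 at 519 against 2523 CPM. All 39 genes were chosen in these same libraries, where both high-fat sums already lay above both low-fat sums. The counts above, without immature cells or by sex-linked RNA, therefore describe these genes and do not test either difference. The same genes were also read within clusters. Within cluster 1, 29 of the 39 genes had both high-fat libraries above both low-fat ones, within cluster 2 24 and within cluster 3 20. The genes were chosen by their direction in sums that hold these clusters, and no share over all genes is given. These counts therefore describe the 39 genes and do not test the diet difference. Cxcl3 in cluster 1 was at 5144 and 3086 CPM in HFD_shYap and HFD_WT, against 589 and 1511 CPM in LFD_shYap and LFD_WT. The test within clusters 1, 2 or 3 alone called 0 genes (edgeR; 197, 135 and 164 genes at an unadjusted p under 0.05), and Cxcl3, Fam71f2, Ccl3 and Upp1 are leading genes of cluster 1. The values rest on 164, 375, 63 and 18 cells of HFD_shYap, HFD_WT, LFD_shYap and LFD_WT in cluster 1 and on 106, 165, 82 and 224 in cluster 2, so the libraries were filled unequally across clusters, and the part of this in the calls over all cells was not tested.

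Library pairs of the same line gave the diet values apart. Over core cells 104 of 1539 genes were 2-fold higher and 72 2-fold lower in HFD_WT than in LFD_WT (6.76% and 4.68%), and 310 were higher and 90 lower in HFD_shYap than in LFD_shYap (20.1% and 5.85%). Without immature cells the counts of the shYap pair were 126 and 26 of 1539. Over gated cells the shares were 4.8% and 1.09% for the WT pair and 13.8% and 4.14% for the shYap pair. Highest in the WT pair were Syne1, Inhba, Fnip2 and Hspa1a, the last a heat shock chaperone at 316 CPM in HFD_WT against 36.2 CPM in LFD_WT. Lowest were Egr3, at 12.8 against 128 CPM, Cbr2, Ltc4s, which makes leukotriene C4, at 32.9 against 151 CPM, and Ccl2, a monocyte chemokine, at 212 against 892 CPM. Highest in the shYap pair were Ifit3b, at 100 CPM in HFD_shYap against 4.26 CPM in LFD_shYap, Ccl3, Cxcl3 and Rsad2, and lowest were Serpinb1a, Elane, Camp and Fcnb, granule-related genes. None of these ratios was tested.

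The calls depended on the libraries in the fit. Leaving out HFD_WT or HFD_shYap left 0 genes called in core cells (edgeR; 718 and 265 at an unadjusted p under 0.05) and 15 or 47 over gated cells, whereas leaving out LFD_shYap or LFD_WT gave 74 and 159 over core cells and 190 and 201 over gated cells. Of the 39 genes, 9 and 22 stayed called over gated cells without HFD_WT and HFD_shYap, and 28 and 21 over core cells without LFD_shYap and LFD_WT. Over gated cells 29 stayed called with DESeq2, 16 without doublet-ranked barcodes and 8 with RLE factors. The direction of all 39 genes stayed the same in each of these fits. In all 39 both high-fat sums already lay above both low-fat sums, so the kept direction was largely set beforehand and tests nothing further. If LFD_shYap is read as high-fat, as its treatment field has it, 23 genes were called over gated cells, 2 of the 39 among them, and 0 over core cells (156 at an unadjusted p under 0.05).

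For the tumour line, Yap1 was examined first, since shYap names a knockdown of it in the tumour cells. Tumour-like barcodes had no Ptprc UMI and 10 or more UMIs of Col1a1, Col3a1, Tm4sf1, Hmga2 and Msln together (118, 532, 670 and 668 in HFD_shYap, HFD_WT, LFD_shYap and LFD_WT). Among them Yap1 was at 22.7 CPM (18.7 to 27.4, exact Poisson interval) in HFD_shYap and 16.3 CPM (14.2 to 18.6) in HFD_WT. In the low-fat pair it was at 18.3 CPM (16.3 to 20.6) in LFD_shYap and 20.4 CPM (18.2 to 22.8) in LFD_WT. Over all filtered barcodes, few of which are tumour cells, it was at 1.60 CPM in HFD_shYap against 2.64 in HFD_WT, and at 3.32 CPM in LFD_shYap against 4.08 in LFD_WT. In tumour-like barcodes Yap1 RNA was thus not lower in the libraries labelled shYap beyond counting error, and a 3′ count does not show the protein. The collagen genes also admit fibroblasts to this class, so these values cannot show whether Yap1 was lowered in the tumour cells. In neutrophils Yap1 had 5, 4, 2 and 1 UMIs in the same order. The comparisons below therefore set libraries labelled shYap against libraries labelled WT.

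Few neutrophil transcripts were called for tumour line over both diets. The additive fit counts line differences that change with diet as error, so few calls do not show that few transcripts differed. Over gated cells 2 genes were higher (Col1a1 and Col3a1) and 2 lower (Gzma and Ccl12) of 8105 (0.0494% called, 0.0247% in each direction; 585 genes, 7.22%, at an unadjusted p under 0.05). Over core cells 1 was lower, Ccl12, of 6053 (0.0165% called; 416 genes, 6.87%, at an unadjusted p under 0.05). Col3a1 was at 406 CPM in HFD_shYap, 94.3 in HFD_WT, 285 in LFD_shYap and 111 in LFD_WT over gated cells, but at 11.7 to 24.4 CPM in core cells, since cluster 7 held most of it. Gzma, a granzyme, had its highest mean level in the monocyte class, of the classes compared above. The call of Gzma rested on LFD_WT, at 260 CPM against 0.757, 3.14 and 12.7 CPM in HFD_shYap, HFD_WT and LFD_shYap. Its log2 fold change of -3.96 for line turned to 1.18 without LFD_WT and to 1.20 with LFD_shYap read as high-fat. Ccl12, a monocyte chemokine, had 66.9 CPM in HFD_shYap against 215 CPM in HFD_WT, and 55.3 CPM in LFD_shYap against 408 CPM in LFD_WT, in core neutrophils (log2 fold change -2.19 ± 0.35, adjusted p = 0.0184, edgeR). C1q-high barcodes had more of it and in the same direction, 321 CPM in HFD_shYap against 513 in HFD_WT and 331 in LFD_shYap against 911 in LFD_WT. No member of the 20 lists was called for line in either fit. All 12 chemokine ligands had a negative core fold change for line, with a median of -0.78, against 0.0104 over all genes tested. The shift was not particular to chemokines. Of 15 counted secondary and tertiary granule genes 14 were positive and 1 negative, with a median of 1.003. Of 10 counted antigen presentation genes 9 were negative and 1 positive, with a median of -0.59. The median was -0.02 for the interferon gamma list and 0.15 for the type I interferon list.

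Between single libraries the lines differed differently under each diet. Under high-fat diet the highest core ratios of HFD_shYap over HFD_WT were all genes of the antiviral interferon response: Ifit2 at 134 against 29.3 CPM, Ifih1 at 114 against 25.6, Ifit1 at 894 against 221 and Helz2 at 107 against 26.8, or log2 ratios of 2.19, 2.16, 2.02 and 1.99 where the median gene had 0.12. The lowest were the heat shock genes Hspa1a, at 56.1 CPM in HFD_shYap against 316 in HFD_WT, and Hspa1b, at 75.6 against 299. In all 74 of 1531 genes were 2-fold higher and 41 2-fold lower (4.83% and 2.68%; 3.29% and 1.1% over gated cells). Under low-fat diet Ifit1 was at 103 CPM in LFD_shYap against 292 in LFD_WT and Rsad2, which encodes the antiviral protein viperin, at 153 against 569 CPM, whereas Rsad2 was at 1670 CPM in HFD_shYap against 515 in HFD_WT. Without immature cells these values were 919 CPM in HFD_shYap against 225 in HFD_WT and 150 CPM in LFD_shYap against 296 in LFD_WT for Ifit1, and 1717 against 526 and 261 against 578 CPM for Rsad2. Of 25 list members HFD_shYap was then the highest library for 22 and LFD_shYap the lowest for 18, but not for Slfn4, Trim30a and Oasl2, at 761, 229 and 231 CPM in LFD_shYap against 530, 223 and 198 CPM in LFD_WT. No share over all genes is given beside these counts or those by sex-linked RNA below. With immature cells counted in, the median gene had a log2 ratio of 0.36 for HFD_shYap over LFD_shYap and -0.31 for LFD_shYap over LFD_WT. Within HFD_shYap the levels were higher in Y-positive than in Xist-positive cells: Rsad2 was at 268 CPM in Xist-positive cells (33 UMIs) and 2762 CPM in Y-positive cells (671 UMIs), and Ifit1 at 324 CPM (40 UMIs) and 1243 CPM (302 UMIs). In 14 of the 25 members both kinds of cell were above HFD_WT, and in 4 Xist-positive cells were above Y-positive cells. After thinning, Ifit1 was detected in 21.8% of cells in HFD_shYap (17.9 to 26.2) and 7.14% in HFD_WT (5.48 to 9.12), and in 7.16% in LFD_shYap and 8.35% in LFD_WT; T cells had 3.34 to 7.87%. These are values of single libraries and were not tested.

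**Figure D4:**
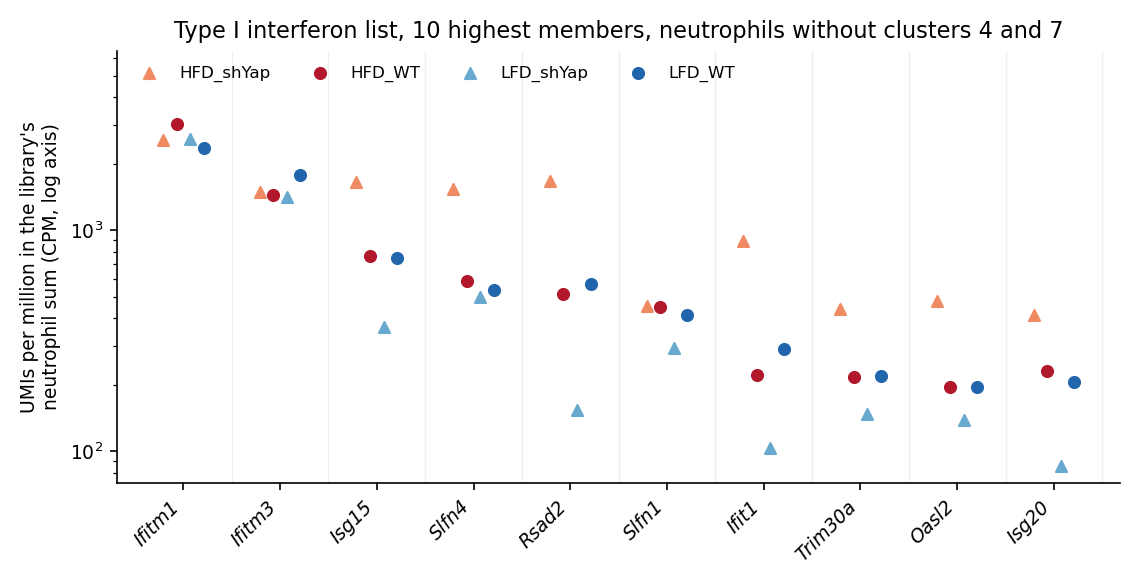
Levels in core neutrophils of the 10 most abundant members of the type I interferon list, in CPM on a log axis, 1 point per library. HFD_shYap is the highest point for Isg15, Slfn4, Rsad2, Ifit1, Trim30a, Oasl2 and Isg20, at 1670 CPM for Rsad2, and LFD_shYap, with its immature cells counted in, the lowest of these, while Ifitm1 and Ifitm3 differ little.

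In the low-fat pair the highest ratios were those of granule genes, while more genes were lower than higher. Among 1492 genes 57 were 2-fold higher and 176 2-fold lower in LFD_shYap than in LFD_WT (3.82% and 11.8%; 2.37% and 4.02% over gated cells). Without immature cells 70 of 1561 were higher and 96 lower. Highest were Camp, at 10351 against 186 CPM, Ngp, at 12237 against 332 CPM, Serpinb1a, an inhibitor of neutrophil elastase, at 470 against 14.2 CPM, and Elane, the elastase itself, at 150 CPM against 0 UMIs in LFD_WT. Lowest were Bcl2a1d, an antiapoptotic gene, at 8.51 against 142 CPM, and Egr3, an early response gene, at 8.51 against 128 CPM. Cxcl10, a chemokine for T cells, was at 29.8 CPM in LFD_shYap against 269 in LFD_WT.

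Immature cells held 98.2% of the Camp and Ngp UMIs of LFD_shYap. That library had 44 of them, against 4, 5 and 3 in HFD_shYap, HFD_WT and LFD_WT. Their share of neutrophils was 0.939% in HFD_shYap (0.256 to 2.39), 0.579% in HFD_WT (0.188 to 1.35), 10.9% in LFD_shYap (8.05 to 14.4) and 0.703% in LFD_WT (0.145 to 2.04). LFD_shYap exceeded LFD_WT by 10.2 points (7.22 to 13.7), and HFD_shYap differed from LFD_shYap by -9.98 points (-13.4 to -6.93). Immature cells of LFD_shYap were deeper than its other neutrophils, with medians of 8416 and 1773 UMIs. After thinning to 1000 UMIs, the share with 3 or more UMIs of Camp and Ngp was 0.971%, 0.726%, 10.7% and 1.19% in HFD_shYap, HFD_WT, LFD_shYap and LFD_WT. Of the 44 cells 35 lay in cluster 6, 25 had 100 or more Camp and Ngp UMIs and 1 was marked by the doublet score. The share was thus an attribute of 1 library, with no replicate.

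Within LFD_shYap, 43 immature core cells were set beside 282 others, as a description, since Camp and Ngp chose them. Secondary granule genes outside the rule went with them: Ltf, which encodes lactoferrin, had 5702 CPM in immature cells and 3.75 CPM in the others, and Lcn2, the iron-siderophore binder lipocalin, 16271 and 2669 CPM. Primary granule genes were also present, with Prtn3 (proteinase) at 467 and 7.5 CPM, Elane at 344 and 1.88 CPM, and Mpo (myeloperoxidase) at 41 UMIs and 0 UMIs. Mmp8 and Mmp9, collagenase and gelatinase of later granules, differed little, at 1092 and 1086 CPM and at 763 and 634 CPM. Cebpe, the transcription factor of secondary granule formation, was at 426 and 60 CPM, and the cycling markers Mki67 and Top2a were at 135 and 13.1 CPM and at 125 and 15 CPM. In the opposite direction Cxcr2, the receptor that carries cells out of the marrow, was at 214 CPM in immature cells and 1118 CPM in the others, and Cxcr4 at 71.3 and 503 CPM. Il1b had 56.6 and 4419 CPM, Ptgs2, which encodes cyclooxygenase 2, 2.46 and 478 CPM, Cxcl3 2.46 and 283 CPM, and Ifitm1 165 and 4415 CPM.

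**Figure D5:**
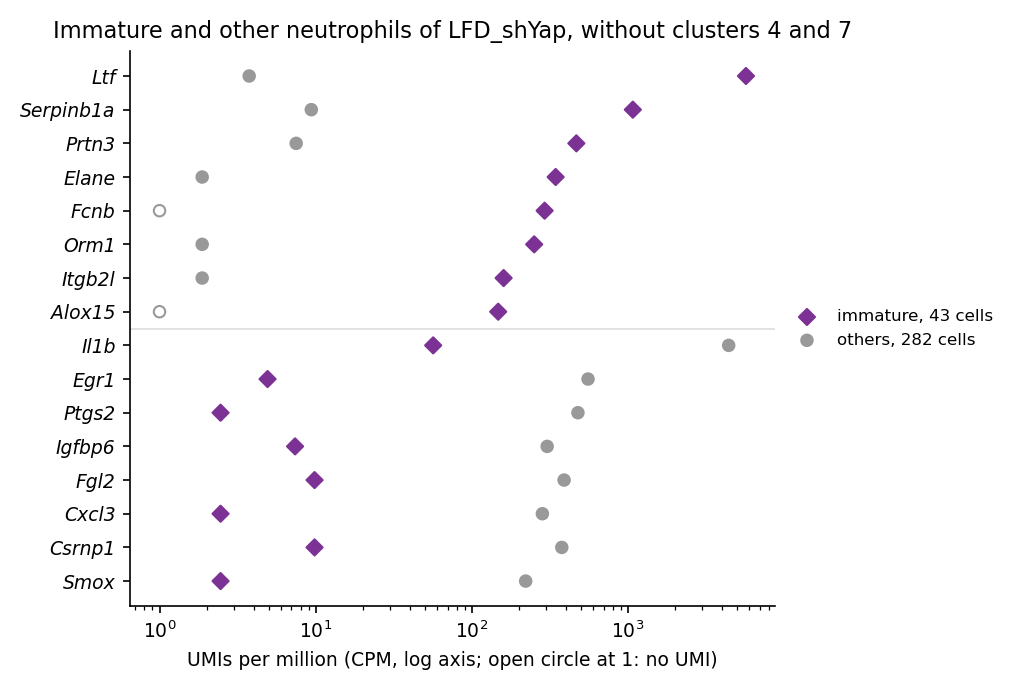
Levels in immature (43 cells, diamonds) and other (282 cells, circles) core neutrophils of LFD_shYap, in CPM on a log axis, for the 8 highest and 8 lowest ratios among genes outside the rule; open circles mark genes with no UMI. Ltf lies at 5702 CPM in immature cells against 3.75 CPM in the others, and Il1b at 56.6 against 4419 CPM.

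Neutrophils were last set beside low-C1q monocytes of the same libraries, barcodes outside the rule with 3 or more UMIs of Ly6c2 and Ccr2 (1016, 1076, 577 and 1023 barcodes in HFD_shYap, HFD_WT, LFD_shYap and LFD_WT), the nearest myeloid class. The rule separates these cells, so the values describe them and no test is read from them. Past an adjusted p of 0.05 and 2-fold, 1221 genes were higher and 262 lower over gated cells (13% of 11412, 10.7% higher and 2.3% lower), and 1849 were higher and 1804 lower over core cells (33.0% of 11056, 16.7% higher and 16.3% lower). Stfa2l1, a stefin that inhibits cysteine proteases, was at 1388, 967, 671 and 1046 CPM in core neutrophils, against 0.135, 0.459, 0.149 and 0.352 CPM in monocytes. Cstdc4, Asprv1, Mirt2, Rdh12, Slc2a3 (a neuronal-type glucose transporter) and Hcar2 (the receptor for beta-hydroxybutyrate) followed, with log2 fold changes over gated cells of 9.36, 8.66, 6.98, 6.51, 5.96 and 5.77. The MHC class II genes H2-Ab1 and H2-Aa, Cd74 and Arg1, the arginase, were lower, with log2 fold changes of -1.97, -1.93, -1.88 and -1.97 over gated cells and -3.45, -3.02, -3.21 and -2.47 over core cells. By list, 16 of 17 secondary and tertiary granule genes and 12 of 16 interleukin 1 and NF-kB cytokines were higher in neutrophils over gated and over core cells. Of 25 type I interferon genes 11 were higher over gated cells and 15 over core cells, and of 13 antigen presentation genes 8 and 11 were lower, with 2 higher.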

How the data were processed

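The deposited files were raw UMI count matrices, 1 per library, with 32285 genes and no normalization; Cell Ranger 6.0.0 is named per the file headers, and Cell Ranger 4.0.0, STAR 2.5.1 and mm10 per the submitters' processing notes. The labels name 10x 3′ v3.1 chemistry and no cell-calling step. Filters removed 392 barcodes with few genes and 7053 with high mitochondrial shares. No barcode was removed as a doublet; scores were ranked, and the caller's own threshold, which marked at most 3 barcodes in a library, was not used. Members, lists, tests and alternatives were chosen with earlier results of these data known.

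Neutrophils were clustered with scanpy 1.11.5 (Leiden, resolution 0.5, 2000 variable genes, 20 components). UMIs were summed per library and tested with edgeR 4.0.16 in R 4.3.3 (TMM, filterByExpr, quasi-likelihood, diet plus line, Benjamini-Hochberg 0.05), which leaves 1 residual degree of freedom; the SE is the absolute log2 fold change over the square root of F. DESeq2 1.42.0 was an alternative. For pair ratios a count under 3 was set to 3, and a gene entered a pair with 100 CPM and 30 UMIs or more in its higher library. On simulated counts for the diet comparison, 20 of 100 genes changed 2-fold and 81 of 100 changed 4-fold were called, with 2 false calls, over 8120 genes. Those counts were drawn from each gene's mean with the fitted dispersion trend and a diet change only. They held no line effect, no interaction and no difference in cell content between libraries, so the false calls apply to that setting.

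Named genes were the rule genes, up to 8 called genes per direction with the smallest p, called list members, up to 4 members per list with the highest level, the 4 highest and 4 lowest pair ratios and the leading cluster genes; Inhba, Fnip2 and Marco came from the fit without clusters 4 and 7, and Ccl4, Plin2, Vegfa, Cebpe, Mki67 and other list members were named after their values were seen. Gene positions are from GENCODE for GRCm38, which held 32158 of the 32285 identifiers.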

Additional observations from a re-analysis of the deposited data

Results flagged for a closer look

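The effect of the tumour line on the neutrophil share ran in opposite directions under the 2 diets. HFD_shYap differed from HFD_WT by -1.67 points of filtered barcodes, and LFD_shYap from LFD_WT by 0.655 points; for core neutrophils these differences were -1.04 and 0.515 points. In both cases the pair's interval lay on its own side of 0 for all gated cells, but the difference between the pairs was not tested, since each rests on 1 library per group.

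Among 1725 genes of core neutrophils, 30 differed 2-fold or more between the lines in opposite directions under the 2 diets, 24 of them higher in the shYap library under high-fat diet and lower under low-fat diet. Egr3, an early response gene, had a log2 ratio of 2.43 for HFD_shYap over HFD_WT and -3.91 for LFD_shYap over LFD_WT. Ifit3b, an interferon-induced gene, had 1.94 and -3.09 for the same pairs. Zmpste24, the protease that matures lamin A, had -2.29 and 3.0, and Hist1h1b, a linker histone of dividing cells, had -2.21 and 3.64. None of these differences was tested. Immature cells held 43.3% of the core UMIs of LFD_shYap; without them 11 of the 30 genes, 8 of the 24, still differed 2-fold in opposite directions. Egr3 (-3.11) and Ifit3b (-2.29) kept their lower level in LFD_shYap than in LFD_WT, whereas Zmpste24 and Hist1h1b had log2 ratios of 0.04 and 0.40 there.

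Xist, which no comparison used, had 173 UMIs in the neutrophils of HFD_shYap and 0 in those of each other library.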

How the results depend on the processing

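No paired analysis was possible because the labels carry no replicate numbers and each combination of diet and line is 1 library. The test of immature over other neutrophils, with its alternatives, was not run, since fewer than 3 libraries had 10 immature cells.

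Against 80 genes called for diet, the count was 45 with DESeq2, 12 with RLE factors, 321 without an expression filter, 20 without doublet-ranked barcodes, 19 without cells with Csf1r UMIs or 2 or more UMIs of Ly6c2, Ccr2 and Cd74, 239 without immature cells, 32 with diet alone in the model, 23 with LFD_shYap read as high-fat, and 15 to 201 with 1 library left out. Chosen after seeing the data, the count was 48 without clusters 4 and 7 (0 to 159 with 1 library also left out, 0 with LFD_shYap read as high-fat), 132 in cluster 4 alone, 0 in clusters 1, 2 or 3 alone, and 0 after thinning to 1000 UMIs (469 at an unadjusted p under 0.05; 13 without clusters 4 and 7). Of the 504 values of named diet genes under the alternatives set out at the start 198 lost significance and 0 reversed; of 468 under those added later 305 lost significance and 3 reversed. Of these, Ccl3 was at -1.34 in cluster 3 alone, and Ifit1bl2 and Tmem140 at -0.41 and -0.35 in cluster 1 alone. The named diet genes were chosen by their direction in these same libraries, so the directions kept do not test the diet difference.

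Against 4 genes called for line, the count was 102 without an expression filter, 39 without immature cells, 3 to 47 with 1 library left out, 1 without clusters 4 and 7, 10 without clusters 4, 6 and 7, 30 in cluster 4 alone, and 0 with line alone, with RLE factors, without doublet-ranked barcodes, after thinning and in clusters 1, 2 or 3 alone (edgeR; 129 to 524 at an unadjusted p under 0.05; DESeq2 called 6). Col3a1 for line turned to -0.95 without clusters 4 and 7 and -1.0 without clusters 4, 6 and 7, and Gzma, from -7.16 to 1.18 with 1 library left out (positive without LFD_WT), turned to 1.20 with LFD_shYap read as high-fat. Genes called against monocytes numbered 3653 without clusters 4 and 7. The share difference of HFD_shYap and LFD_shYap was 0.510 points with 2% granule genes; the other 19 share values and all 24 of the immature share kept their direction and size. Genes 2-fold apart numbered 191 and 176 for HFD_WT over LFD_WT, 147 and 115 for HFD_shYap over HFD_WT and 181 and 233 for LFD_shYap over LFD_WT, without the cells named above and without clusters 4 and 7. Without clusters 4 and 7 and immature cells these counts were 180, 117 and 166, and 152 for HFD_shYap over LFD_shYap, against 282 over gated cells. The causes were not tested.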
